A study of Homo sapiens with 4 samples.

Results

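The genes described here encode the subunits of the mitochondrial respiratory chain and of ATP synthase. They were chosen by symbol (MT-ND, MT-CO, MT-CYB and MT-ATP genes, then the numbered NDUFA, NDUFB, NDUFC, NDUFS and NDUFV genes, SDHA to SDHD, UQCR genes, COX4 to COX8 genes with an A, B or C suffix, and ATP5F1, ATP5M and ATP5P genes), with pseudogenes left out. Of 250 table lines that matched, 148 were pseudogenes and 3 were noncoding RNA genes, which leaves 99 genes of 59533 analysed. In this set, 13 genes lie in mitochondrial DNA and 86 in the nucleus. The naming pattern leaves out some subunits that carry other names, such as COX4I1 and CYC1.

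RNA sequencing was done on 2 human cell lines, with 1 library for each of 4 groups. HCC1937 derives from a breast tumour and THP-1 from a myeloid malignancy. Both are labelled p53-/- and were infected to express the p53 mutant R282W, so that all 4 groups carry it and no library without it was analysed here. HCC1937 cells were left untreated or given 0.3 μM DAC (decitabine, a cytidine analogue that inhibits DNA methyltransferases) for 5 days, and THP-1 cells were left untreated or given 5 μM DAC for 2 days. The lines therefore differ in dose and in time, and these cannot be told apart from the line itself.

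The respiratory chain passes electrons from NADH and succinate to oxygen through complexes I to IV of the inner mitochondrial membrane, and ATP synthase (complex V) uses the resulting proton gradient. Every complex but complex II combines subunits translated inside the mitochondrion with subunits imported from the cytosol, so each is the product of both genomes. Mitochondrial genes are transcribed as long polycistronic RNAs from both strands of a small circular DNA and are then cut into separate RNAs, while each nuclear subunit gene has a promoter of its own.

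The counted reads, recovered from the step size of the deposited values, came to 18.7 M in both HCC1937 libraries and to 19.5 M and 19.7 M in untreated and DAC-treated THP-1 cells. All 6 epithelial markers examined were at 1 FPKM or more in both HCC1937 libraries, and all 6 myeloid markers in both THP-1 libraries. Of the myeloid markers, 0 in untreated and 1 in DAC-treated HCC1937 cells reached that level, and 2 epithelial markers did so in each THP-1 library. With 1 library per group there are no replicates, so no difference within a line has a replicate check, and the 95% intervals given here cover counting error only. These are bulk libraries, in which fewer cells of a kind and less RNA per cell cannot be told apart. The RNA was purified as mRNA before library preparation, and the levels of mitochondrial RNAs here are those of RNAs that this step retained.

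All 13 mitochondrially encoded subunit RNAs were higher in the DAC-treated than in the untreated HCC1937 library, by 1.52 to 2.10 times. The difference spanned 0.59 to 1.07 on the log2(FPKM + 1) scale, and 13 of 13 genes lay above 0, against 66.2% of all kept genes. Calls at the 2-fold size rule used throughout went to 2 of the 13 genes, MT-ND1 and MT-ND6, against 10.3% of kept genes called higher. Under median-of-ratios or upper-quartile scaling neither was called (0.73 and 0.84 for MT-ND1, 0.78 and 0.90 for MT-ND6). At 1.5-fold all 13 were called, against 22.0% of kept genes.

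The MT-ND genes encode membrane subunits of complex I, the NADH dehydrogenase that forms the entry point of the chain. MT-ND1 stood at 126 FPKM untreated and 255 with DAC, a ratio of 2.02 (95% counting interval 1.92 to 2.13). MT-ND6 went from 109 to 229 FPKM, with a ratio of 2.10 (1.95 to 2.26). MT-ND5 went from 178 to 347 FPKM, with a ratio of 1.94 (1.88 to 2.01). These 3 genes had the highest ratios of the 13, and MT-ND6 is the only one of the 13 coded on the opposite strand of the reference. The other members of complex I lay lower. MT-ND4 stood at 386 and 628 FPKM (ratio 1.63), MT-ND2 at 317 and 514 FPKM (1.62), and MT-ND4L at 303 and 477 FPKM (1.58). MT-ND3 had the smallest ratio of all, with 95.3 and 144 FPKM (1.52, 1.37 to 1.68), and its interval did not overlap that of MT-ND6.

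MT-CYB encodes cytochrome b, the only mitochondrially encoded subunit of complex III, and stood at 256 FPKM untreated and 417 with DAC (1.63, 1.58 to 1.69). MT-CO1, MT-CO2 and MT-CO3 encode the catalytic core of complex IV, cytochrome c oxidase. MT-CO2 was the most abundant member in both libraries, at 1427 and 2713 FPKM (1.90, 1.87 to 1.94). MT-CO1 followed with 1222 and 2267 FPKM (1.85, 1.83 to 1.88), and MT-CO3 stood at 409 and 679 FPKM (1.66, 1.61 to 1.71). The intervals of MT-CO1 and MT-CO2 overlapped, and that of MT-CO3 lay below both.

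MT-ATP6 and MT-ATP8 encode membrane subunits of ATP synthase. MT-ATP6 stood at 452 and 753 FPKM (1.67, 1.61 to 1.72), and MT-ATP8 at 60.7 and 112 FPKM (1.85, 1.58 to 2.18). Their coding sequences overlap by 46 bases on the mitochondrial genome (chrM:8527-8572, plus strand, GRCh38), so reads in that stretch cannot be given to either gene. The shared stretch is printed because it is where the reading frame of MT-ATP6 opens inside that of MT-ATP8. Capitals mark the start codon of MT-ATP6.

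MT-ATP8 and MT-ATP6: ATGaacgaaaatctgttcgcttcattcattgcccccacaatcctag

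MT-ND4L and MT-ND4 likewise overlap by 7 bases, and MT-ATP6 and MT-CO3 by 1 base. Ordered by ratio, each gene's interval overlapped that of its neighbour, and 7 genes up to MT-ATP6 were followed by 6 from MT-ATP8 and MT-CO1 upward. The intervals of MT-ATP6 (up to 1.72) and MT-CO1 (from 1.83) did not overlap. Only the wide interval of MT-ATP8, on 235 and 435 estimated reads, overlapped both.

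**Figure D1:**
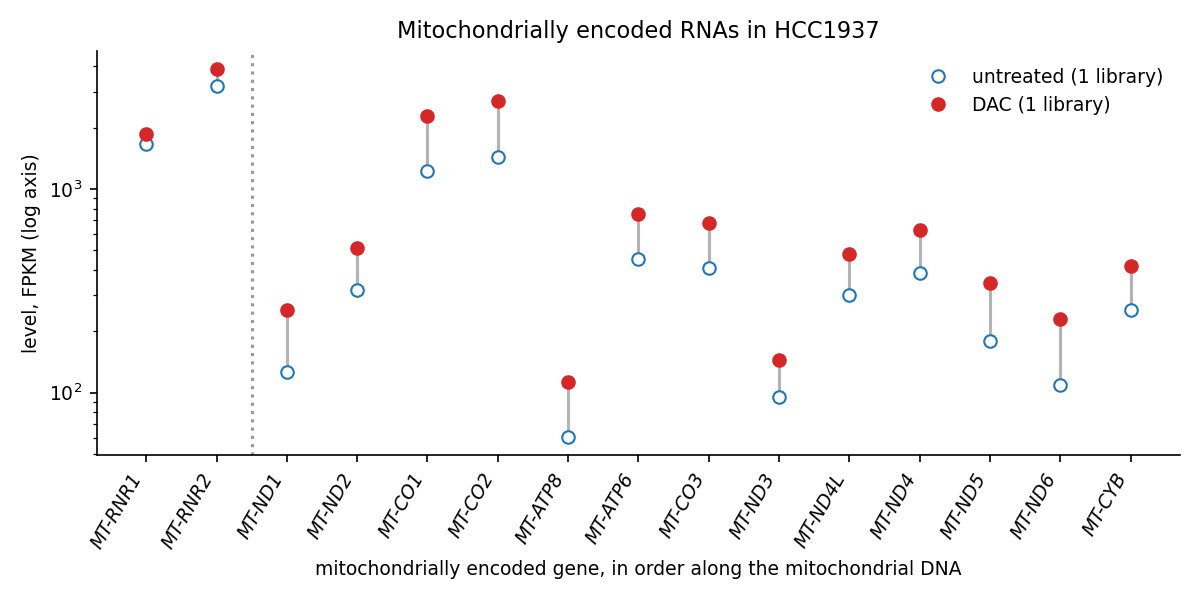
Levels of MT-RNR1, MT-RNR2 and the 13 mitochondrially encoded subunit RNAs in the untreated (open circles) and DAC-treated (filled circles) HCC1937 libraries. Each point is 1 library (FPKM, log scale), with genes in order along the mitochondrial DNA. Every subunit RNA is higher with DAC, by 1.52 times for MT-ND3 to 2.10 times for MT-ND6.

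The summed level of the 13 genes in relation to that of the nuclear members was 0.989 untreated and 2.05 with DAC. By estimated reads, the 13 genes took 0.528% of counted reads untreated and 0.948% with DAC, and the nuclear members 0.996% and 0.859%. Other RNAs of the mitochondrial genome differed by other amounts. The ribosomal RNAs, which build the small and large subunits of the mitochondrial ribosome, stood at 1670 and 1855 FPKM for MT-RNR1 (1.11, 1.09 to 1.13) and at 3195 and 3870 FPKM for MT-RNR2 (1.21, 1.20 to 1.22). Both intervals lay below those of all 13 subunit genes. Of 22 transfer RNA genes, 21 were listed at 0 in both libraries. MT-TP, the proline transfer RNA gene, which like MT-ND6 is coded on the minus strand, stood at 139 and 309 FPKM (2.22, 1.86 to 2.67), with 177 and 393 estimated reads.

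The nuclear subunit genes of HCC1937 did not share this direction. Of 86 nuclear genes, 81 were kept, that is, reached 1 FPKM in either library, and 60 of these, or 74.1%, were lower with DAC, against 33.5% of all kept genes and 54.7% of the 2618 kept genes with a mean of 20 FPKM or more. Their median log2 difference was -0.18, against 0.19 for all kept genes and -0.05 for those of that level. Their summed level went from 5398 to 4654 FPKM (0.862 times). Calls at 2-fold went to 2 nuclear genes higher, COX8C and COX7A1, and to 0 lower, against 10.3% and 1.44% of kept genes. Under median-of-ratios and under upper-quartile scaling 3 were called lower, NDUFS7, ATP5ME and ATP5MC2. Of all 14058 kept genes, 451 and 317 were called lower under these scalings. At 1.5-fold the counts were 4 higher and 7 lower, against 22.0% and 5.93% of kept genes. The counting interval of the ratio lay below 1 for 48 genes, against 21.7% of all genes with an interval, above 1 for 11, against 51.1%, and included 1 for 22. Among genes with a mean of 20 FPKM or more, it lay below 1 for 34 of 50 members and for 46.2% of all.

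The mitochondrially encoded median exceeded the nuclear median by 0.92 on the log2 scale. Only 3 kept nuclear genes, COX8C, COX7A1 and COX6B2, reached the lowest difference of any mitochondrially encoded gene (0.59), and the highest of the other 78 was 0.59 for NDUFC2, just under it. The 2 kinds of gene differ in length, with median exon lengths of 784 and 2462 bp, and in level, with untreated medians of 303 and 34.9 FPKM. Whether either takes part in the gap was not tested beyond abundance: against the 13 nuclear genes whose mean over both libraries reached that of the lowest mitochondrially encoded one, the gap was 0.99. Over 3 other scalings the gap was 0.90 to 0.92, but both medians moved. Scaled by median of ratios, which shifts the median of all kept genes from 0.19 to -0.04, the mitochondrially encoded median was 0.45, the nuclear one -0.45, and 76 of 81 nuclear genes lay below 0.

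**Figure D2:**
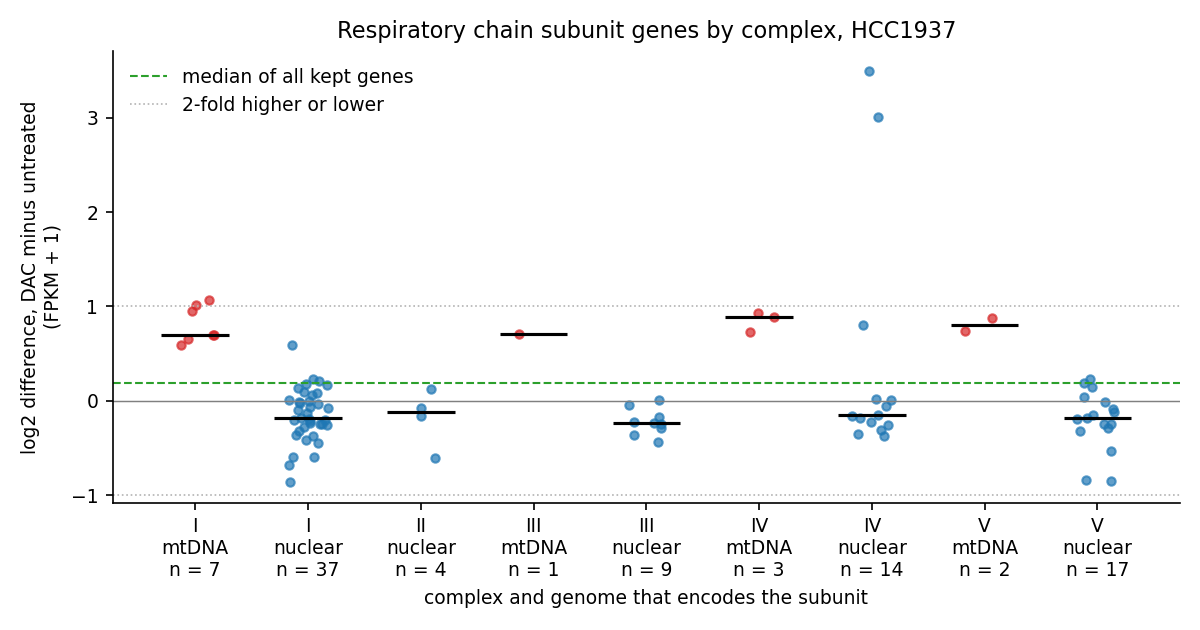
Log2 difference of DAC against untreated, on log2(FPKM + 1), for each kept subunit gene of HCC1937, grouped by complex and by genome, with the median of each group as a bar. Mitochondrially encoded genes lie between 0.59 and 1.07 in every complex that has them, and nuclear medians lie between -0.24 and -0.12.

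Complex I had 37 nuclear genes, all kept, with a median of -0.18 and 27 below 0. Its 7 core subunits, which carry the flavin and the iron-sulfur clusters, had a median of -0.24 with 5 below 0, and its 30 accessory subunits a median of -0.11 with 22 below 0. NDUFS7, a core iron-sulfur subunit, stood at 19.9 FPKM untreated and 10.5 with DAC, a log2 difference of -0.86 and the lowest among all nuclear members. NDUFS4, an accessory subunit of the NADH-oxidising arm, stood at 43.3 and 26.6 FPKM (-0.68). The highest difference in complex I belonged to NDUFC2, at 2.18 and 3.78 FPKM (0.59). Next was NDUFC2-KCTD14, a readthrough gene, at 2.27 and 2.84 FPKM (0.23). Of its exon bases, 52.2% also lie in NDUFC2 and 47.8% in KCTD14, which stood at 2.42 and 5.15 FPKM. Reads of these genes cannot be separated with certainty. Among other core subunits, picked by role after their values were seen, NDUFS8 stood at 53.03 and 34.8 FPKM and NDUFV1, the NADH-binding subunit, at 64.2 and 54.1. NDUFS1, the largest core subunit, went the other way, with 6.97 and 8.22 FPKM.

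Complex II, succinate dehydrogenase, is wholly nuclear and also belongs to the citric acid cycle. SDHA, its flavoprotein, stood at 19.6 and 12.5 FPKM (log2 difference -0.61). SDHB, the iron-sulfur subunit, stood at 34.6 and 32.9 FPKM (-0.07), and SDHC, a membrane anchor, at 32.1 and 28.6 FPKM (-0.16). SDHD, the other anchor, was the only member above 0, at 18.2 and 19.9 FPKM (0.13).

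Complex III had 9 nuclear genes, with a median of -0.24 and 8 below 0. UQCRB stood at 11.7 and 8.40 FPKM (-0.44) and UQCRC1, a core protein, at 136 and 105 FPKM (-0.37). UQCRC2, the second core protein, was level at 51.1 and 51.6 FPKM (0.01). UQCRH, the hinge subunit, stood at 64.5 and 62.3 FPKM (-0.05). Its near-identical copy UQCRHL stood at 16.4 and 13.6 FPKM, and how the counting divided reads between the copies is uncertain.

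Complex V had 19 nuclear genes, of which 17 were kept, with a median of -0.19 and 13 below 0. ATP5ME, a membrane subunit, stood at 34.9 and 19.0 FPKM (-0.85), but 61.6% of its exon bases also lie in MYL5 on the opposite strand, and whether counting used strand is not given in the sources used here. The c ring that turns with proton flow is encoded by 3 genes for the same mature protein. ATP5MC2 stood at 47.4 and 26.0 FPKM (-0.84), ATP5MC3 at 25.8 and 17.5 FPKM (-0.53), and ATP5MC1 at 33.6 and 27.3 FPKM (-0.29). All 3 were lower with DAC. ATP5F1E, the epsilon subunit of the rotating stalk, stood at 47.8 and 41.9 FPKM (-0.19). The highest differences were those of ATP5MPL, at 11.4 and 13.5 FPKM (0.23), and ATP5MF, at 35.8 and 41.0 FPKM (0.19).

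On log2(FPKM + 1) of the deposited values, complex IV held the only nuclear subunits past 2-fold in HCC1937. By the plain ratio, NDUFA7 of complex I, at 1.73 and 0.81 FPKM on 46 and 21 estimated reads, was also more than 2-fold lower. Several of its subunits exist as a widely expressed form and a form restricted to muscle, testis or other tissues. COX8C, a testis form of subunit VIII, was listed at 0 in the untreated library and had 10.3 FPKM in the treated one, from 102 estimated reads. COX7A1, the heart and muscle form of subunit VIIa, was listed at 0 and at 7.02 FPKM, from 132 estimated reads. Both lie apart from the exons of any other gene, and because the untreated value is 0 no fold is given for either. Their log2 differences depend on the pseudocount: with 10 in place of 1 they were 1.02 and 0.77, and COX7A1 was no longer called. COX6B2, a testis form, stood at 3.65 and 7.12 FPKM (ratio 1.95, 1.68 to 2.27), with 30.9% of its exon bases shared with AC020922.1. COX7B2 went from 0 to 0.46 FPKM on 7 estimated reads, and COX6A2 from 0 to 0.11 FPKM on 1 read. All 5 of these had a higher value with DAC, though the counting interval of COX6A2 includes 1. For 4 of them the untreated value was 0, so a lower value was not possible and the shared direction is not support. Of the 5, 3 were kept, COX7A1 and COX8C through the treated library alone. The list of tissue-restricted isoforms also holds NDUFA4L2, at 0.76 and 0.42 FPKM, and UQCRHL, both lower with DAC. UQCRHL, the near-identical copy of UQCRH, stood at 327 and 318 FPKM in THP-1, so its values do not bear out the list's name. With these included, 5 of 7 had a higher value. Of the 7, 4 were kept, and 3 of these lay above 0, beside 66.2% of all kept genes.

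The 5 widely expressed counterparts were all lower in the treated HCC1937 library. COX8A stood at 970 and 813 FPKM (-0.25) and COX6A1 at 253 and 204 FPKM (-0.31). COX7A2 stood at 62.0 and 47.6 FPKM (-0.37), COX7B at 43.4 and 33.8 FPKM (-0.35), and COX6B1 at 94.9 and 91.2 FPKM (-0.06). COX8C with DAC therefore remained far below COX8A. COX7A2L was level at 12.6 and 12.7 FPKM, and NDUFA4 at 28.9 and 29.2 FPKM, while its paralog NDUFA4L2 was under 1 FPKM. Without the 7 isoforms taken as tissue-restricted, complex IV had 11 kept nuclear genes with a median of -0.18 and 9 below 0. Outside the naming pattern, COX4I2, a lung form of subunit IV, was listed at 0 and 1.92 FPKM, and its widely expressed counterpart COX4I1 stood at 132 and 103 FPKM. CYC1, cytochrome c1 of complex III, stood at 408 and 243 FPKM (-0.74).

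**Figure D3:**
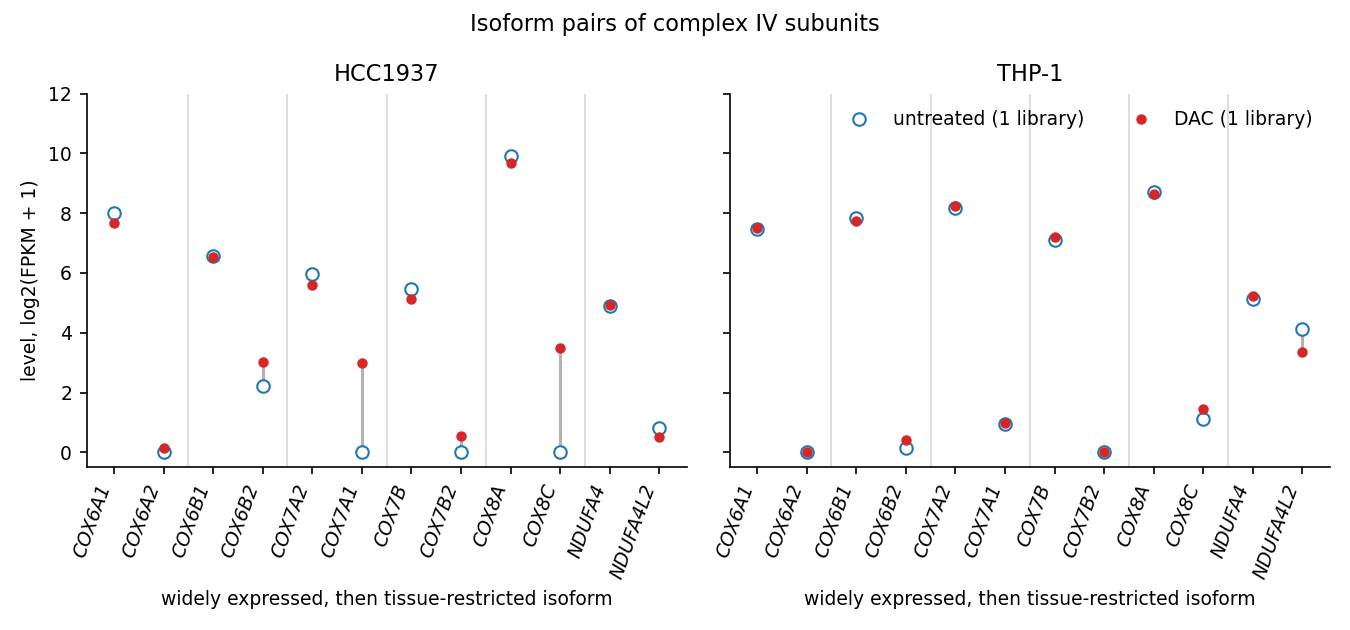
Levels, on log2(FPKM + 1), of widely expressed and restricted isoforms of complex IV subunits in the untreated (open circles) and DAC-treated (filled circles) libraries of both lines. In HCC1937 COX7A1 and COX8C go from 0 to 7.02 and 10.3 FPKM, while COX8A goes from 970 to 813 FPKM.

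Since DAC acts on cytosine methylation at CG dinucleotides, the promoter windows of 4 of the 5 restricted forms, all but COX7A1, are shown with each CG in capitals, beside that of COX8A. The windows run from 250 bases before to 50 bases after the gene's start in RefSeq (GRCh38.p14) and are written along the gene's strand. They lie at chr14:93346932-93347231 (COX8C, plus strand), chr19:55354670-55354969 (COX6B2, minus strand), chr4:46909196-46909495 (COX7B2, minus strand), chr16:31428311-31428610 (COX6A2, minus strand) and chr11:63974370-63974669 (COX8A, plus strand).

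COX8C: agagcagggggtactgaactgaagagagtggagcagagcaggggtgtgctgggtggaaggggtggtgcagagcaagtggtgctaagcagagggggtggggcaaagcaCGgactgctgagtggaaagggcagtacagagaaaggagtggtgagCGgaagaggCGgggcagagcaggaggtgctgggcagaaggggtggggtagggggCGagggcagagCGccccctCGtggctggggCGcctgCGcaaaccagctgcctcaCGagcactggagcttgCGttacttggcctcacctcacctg
COX6B2: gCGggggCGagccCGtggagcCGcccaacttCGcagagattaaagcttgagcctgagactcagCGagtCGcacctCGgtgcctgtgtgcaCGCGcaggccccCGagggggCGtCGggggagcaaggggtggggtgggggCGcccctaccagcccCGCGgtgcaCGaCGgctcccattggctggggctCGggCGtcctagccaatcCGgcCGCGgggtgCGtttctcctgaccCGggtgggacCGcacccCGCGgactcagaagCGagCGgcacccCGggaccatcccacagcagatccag
COX7B2: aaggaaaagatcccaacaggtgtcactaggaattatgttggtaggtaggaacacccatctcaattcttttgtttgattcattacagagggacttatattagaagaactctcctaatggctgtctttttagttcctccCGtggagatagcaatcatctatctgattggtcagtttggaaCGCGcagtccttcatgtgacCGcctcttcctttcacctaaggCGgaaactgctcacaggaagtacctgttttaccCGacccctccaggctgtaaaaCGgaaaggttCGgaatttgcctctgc
COX6A2: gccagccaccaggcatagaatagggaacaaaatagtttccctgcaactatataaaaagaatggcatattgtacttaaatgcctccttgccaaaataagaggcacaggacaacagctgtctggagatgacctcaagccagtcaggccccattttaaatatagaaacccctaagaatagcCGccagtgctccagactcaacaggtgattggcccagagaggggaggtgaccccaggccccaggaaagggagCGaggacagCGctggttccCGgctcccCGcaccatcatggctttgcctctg
COX8A: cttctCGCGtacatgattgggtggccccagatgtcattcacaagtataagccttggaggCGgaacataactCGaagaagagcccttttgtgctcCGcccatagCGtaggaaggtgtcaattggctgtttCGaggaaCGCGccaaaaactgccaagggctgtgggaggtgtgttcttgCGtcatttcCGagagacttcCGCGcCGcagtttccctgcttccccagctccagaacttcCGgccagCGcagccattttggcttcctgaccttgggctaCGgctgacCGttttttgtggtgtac

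The COX8C window holds 10 CG dinucleotides, that of COX7B2 holds 8, that of COX6A2 holds 5 and that of COX6B2 holds 31. COX8A has 18. The median was 23 over the 66 nuclear members with a window and 16 over all 27305 genes in the RefSeq table. COX6A2, COX7B2 and COX8C therefore lay below both medians and COX6B2 above them, and no methylation was measured in these libraries.

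NRF1, nuclear respiratory factor 1, is a transcription factor known for binding promoters of respiratory chain genes. The palindromic core of its binding motif was searched on both strands of each window. The exact core was in 4 of 66 nuclear members (6.06%, against 1.52% of all genes), and a relaxed core, which allows any base at 1 of the central positions and so includes the exact one, was in 16 (24.2%, against 6.98%). The 4 exact matches are shown, with their flanks, as the members in which the whole core was found. Capitals spell the exact core, at chr3:120596168-120596195, chr9:122159765-122159792 (minus strand), chr10:7788146-7788173 and chr11:112086754-112086781.

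NDUFB4: gagcacttcGCGCATGCGCatatcaccg
NDUFA8: ttgccggatGCGCATGCGCaggcgccgt
ATP5F1C: ggagcttcgGCGCATGCGCgctgaggcc
SDHD: gctgtgtttGCGCATGCGCgacgggtgt

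These 4 genes lay on both sides of 0 in HCC1937. NDUFB4 stood at 64.6 and 53.8 FPKM (-0.26) and ATP5F1C at 54.4 and 51.0 FPKM (-0.09), while NDUFA8 stood at 87.7 and 93.6 FPKM (0.09), like SDHD slightly above 0. The 16 members with the relaxed core had a median of -0.21, and the 48 kept members without it a median of -0.17.

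THP-1 cells gave values for 67 nuclear members only, since the 13 mitochondrially encoded genes and all 19 nuclear ATP synthase genes carry no THP-1 value. In THP-1 most nuclear subunit genes were slightly higher with DAC: 48 of 64 kept genes lay above 0, against 65.0% of all kept genes, and 16 below, against 34.7%, with a median of 0.08 beside 0.07 for all. The share above 0 was thus near the background. Calls at 2-fold went to 0 members in either direction, against 1.14% of kept genes called higher and 0.364% lower. Their summed level went from 8196 to 8661 FPKM (1.06 times). The direction depended on the scaling: scaled by median of ratios, the THP-1 median was -0.01 and 34 of 64 genes lay below 0.

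The medians by complex in THP-1 were 0.11 for complex I (30 of 37 above 0), 0.09 for complex II (3 of 4), 0.07 for complex III (6 of 9) and 0.06 for complex IV (9 of 14). NDUFB1, an accessory subunit of complex I, stood at 99.0 and 144 FPKM (0.53), the highest difference among members, and NDUFA12 was next within complex I at 76.5 and 95.1 FPKM (0.31). NDUFA11 had the lowest difference in complex I, at 49.3 and 44.7 FPKM (-0.14), and NDUFS7 stood next, at 183 and 167 FPKM (-0.13). In complex III, UQCRB stood at 52.7 and 61.7 FPKM (0.22) and UQCRH at 209.6 and 241 FPKM (0.20). UQCR11 stood at 115 and 101 FPKM (-0.18). In complex IV, COX5B stood at 208 and 232 FPKM (0.16) and COX6B1 at 225 and 213 FPKM (-0.08).

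NDUFA4L2, a paralog of the complex IV subunit NDUFA4 that is known as a target of hypoxia signalling, was the only THP-1 member past 1.5-fold, with 0 past it upward, at 16.4 FPKM untreated and 9.29 with DAC (-0.76), against 1.0% of kept genes at least 1.5-fold lower and 3.3% higher. The restricted forms of complex IV were at low levels in both THP-1 libraries. COX8C stood at 1.16 and 1.72 FPKM, COX7A1 at 0.94 and 1.00, and COX6B2 at 0.12 and 0.34. COX7B2 and COX6A2 were listed at 0 in both THP-1 libraries.

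The 2 lines were set side by side over the 63 nuclear genes kept in both. Of these, 34 lay below 0 in HCC1937 and above 0 in THP-1, 14 lay above 0 in both, 13 below 0 in both, and 2 above 0 in HCC1937 and below 0 in THP-1. Over all 9798 genes kept in both lines these shares were 18.7%, 45.9%, 16.6% and 18.2%. Scaled by median of ratios, the members' counts were 27, 3, 32 and 1, and the shares of all genes 22.7%, 22.5%, 36.4% and 18.3%. For 14 of the 62 genes with intervals in both lines the counting intervals lay on opposite sides of 1, all of them lower in HCC1937 and higher in THP-1: NDUFA1, NDUFA2, NDUFA3, NDUFA9, NDUFB4, NDUFB10, NDUFS6, SDHC, UQCRB, COX5B, COX6C, COX7A2, COX7B and COX7C. Of all genes with intervals in both lines, 5.84% lay this way and 5.28% the opposite way. Scaled by median of ratios, 12 members lay this way, against 6.08% of all genes. None of these shares of all genes is matched for level. With a mean of 20 FPKM or more, 54.7% of kept genes lay below 0 in HCC1937, against 33.5% of all. In THP-1 this was 47.4% against 34.7%. NDUFB10 stood at 77.5 and 56.4 FPKM in HCC1937 and at 125 and 134 FPKM in THP-1, and NDUFS6 at 248 and 186 FPKM in HCC1937 and 564 and 615 FPKM in THP-1. With 1 library per group these intervals hold no variation between cultures, and the difference between the lines was not tested.

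**Figure D4:**
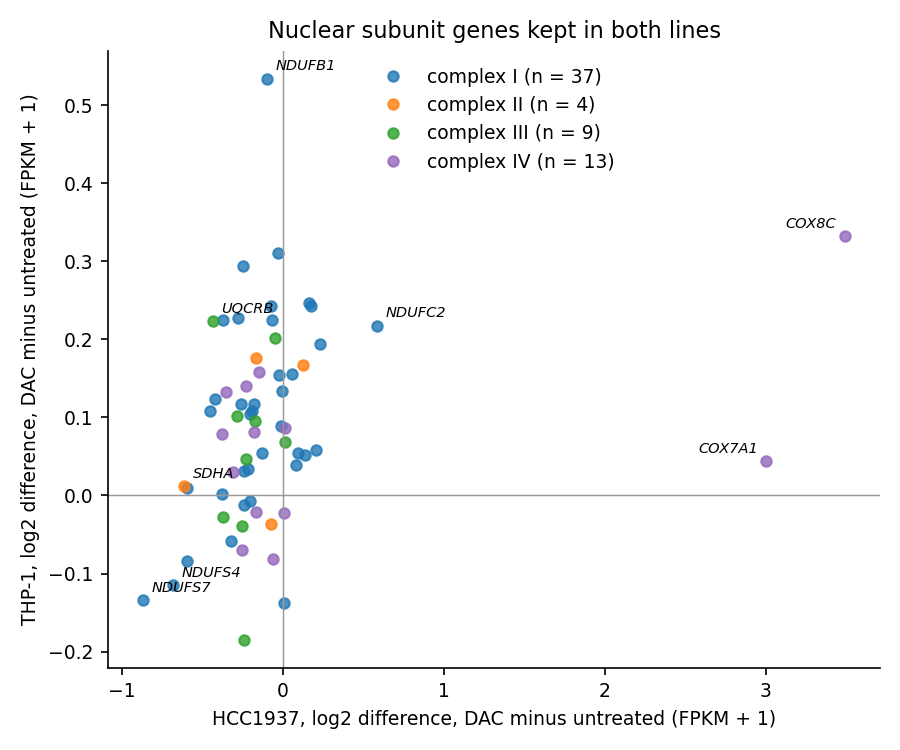
Log2 difference of DAC against untreated in HCC1937 (horizontal) and THP-1 (vertical), on log2(FPKM + 1), for the 63 nuclear subunit genes kept in both lines, 1 point a gene. The upper left quadrant, lower in HCC1937 and higher in THP-1, holds 34 of them as deposited and 27 when scaled by median of ratios. Of all genes kept in both lines, not matched for level, 18.7% and 22.7% lay there.

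One model over all 4 libraries was fitted with limma, with the line as a block and 1 residual degree of freedom. It called 0 of 65 nuclear members and 0 of 13984 genes in either direction at an adjusted p of 0.05 (0% of genes). At an unadjusted p under 0.05 it held 1 nuclear member, NDUFA4L2 (log2 difference -0.53, SE 0.19, adjusted p = 0.695 by limma), and 565 of all genes. NDUFA4L2 was lower with DAC in both lines. The mitochondrially encoded genes have values in 1 line only and did not enter this model.

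Other genes that serve the same organelle were taken from lists written from general knowledge. Mitochondrial ribosomal proteins, which translate the 13 mitochondrial messages, had a median of -0.13 over 76 kept genes in HCC1937, with 49 below 0 and 0 past 2-fold, and 0.03 over 77 in THP-1. Cytosolic ribosomal proteins had the lowest median, -0.45 over 84 kept genes in HCC1937 with 73 below 0, and 0.00 over 83 in THP-1. Citric acid cycle enzymes stood at -0.06 over 18 genes in HCC1937 and 0.05 over 18 in THP-1. Within that list, OGDH of the oxoglutarate dehydrogenase complex stood at 37.5 and 65.4 FPKM in HCC1937, and IDH3B, a subunit of isocitrate dehydrogenase, at 73.7 and 43.2 FPKM.

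Assembly factors of the respiratory complexes had a median of 0.02 over 48 kept genes in HCC1937, with 0 past 2-fold, and 0.02 over 47 in THP-1. ECSIT, a complex I assembly factor, stood at 37.2 and 20.5 FPKM in HCC1937, and COX10, which makes heme A for complex IV, at 3.02 and 1.60 FPKM. Genes that copy and transcribe mitochondrial DNA had a median of 0.12 over 18 kept genes, 12 of them above 0, and 0.09 over 20 in THP-1. In HCC1937, 4 of these 18 were at least 1.5-fold higher and 0 lower, against 22.0% and 5.93% of all kept genes. Picked by role after their values were seen, POLRMT, the mitochondrial RNA polymerase, stood at 20.9 and 14.8 FPKM in HCC1937. TFAM, which packages the genome and starts transcription, stood at 2.80 and 3.26 FPKM. Of other genes in this list, also picked afterwards, TFB2M stood at 4.88 and 7.90 FPKM, TEFM at 1.72 and 2.45, and TFB1M at 1.51 and 1.26. By the naming rule, MGME1, a nuclease of mitochondrial DNA replication, stood at 12.3 and 20.4 FPKM, and RRM2B, a ribonucleotide reductase subunit, at 3.63 and 6.70 FPKM. Genes that process mitochondrial RNA had a median of 0.14 over 17 genes in HCC1937 and 0.11 over 17 in THP-1, with SUPV3L1, a helicase of RNA turnover, at 4.15 and 6.10 FPKM in HCC1937. None of the medians given here for these other lists came near the 0.59 of the lowest mitochondrially encoded gene. The list of tissue-restricted isoforms, which are members themselves, had a median of 1.90 over 4 kept genes. Of these, COX7A1 and COX8C were listed at 0 untreated and kept through the treated library alone. The filter thus favoured a high median, which is not support.

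**Figure D5:**
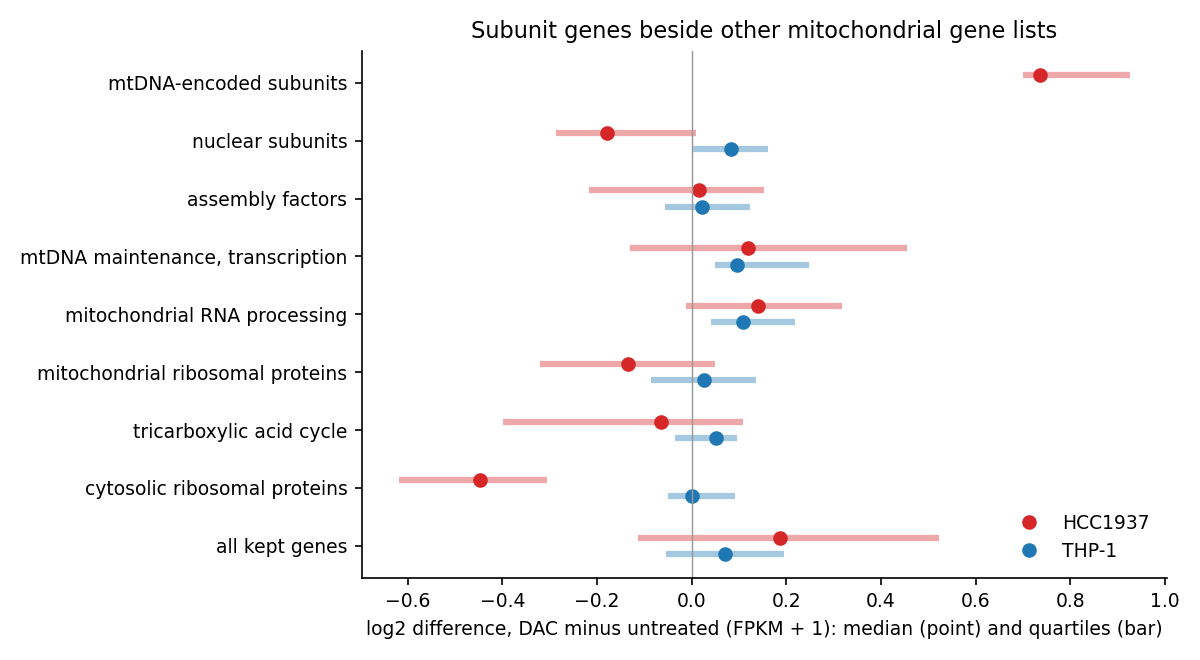
Median log2 difference of DAC against untreated, on log2(FPKM + 1), for the mitochondrially encoded genes, the nuclear subunit genes and the other gene lists in each line, with all kept genes for reference. In HCC1937 the mitochondrially encoded genes (0.74) stand above every list shown and cytosolic ribosomal proteins (-0.45) below.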

How the data were processed

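The authors' deposited table holds 1 value per gene for each of 4 libraries and names no unit. The deposited values were treated as FPKM: in 90.7% to 94.4% of short genes (50 to 250 bp), the product of value and length is a whole multiple, within 0.1, of 1 step per library. STAR, HTSeq, cutadapt and FastQC were used with hg38, per the submitters' processing notes. Versions, annotation and strand use are not given in the sources used here. Of 60612 lines, 37039 lack THP-1 values. Lines of 76 repeated symbols (1079) were left out. Positions and exon lengths came from GENCODE 29 (for THP-1, whose values imply other lengths, from its transcripts paired with RefSeq), promoters from RefSeq.

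Genes that reached 1 FPKM in either library of a line were kept there. Differences are on log2(FPKM + 1), which understates those of low genes, and deposited values were not rescaled. Intervals of ratios are exact (Clopper-Pearson) on reads estimated from FPKM, exon length and step. They cover counting error only. limma 3.58.1 (R 4.3.3, intensity trend, Benjamini-Hochberg adjustment) was tested on simulated data. Other scalings, pseudocounts, filters and sizes were tried. Named genes were all mitochondrially encoded members, those past 2-fold, the 2 highest and 2 lowest of each complex per line, isoform pairs, and the 2 largest differences of each other list, of which a part is printed. Other genes were picked by role, motif or count after their values were seen. Members and lists were chosen with earlier results of these data known. Depth limits low genes most. Values of some genes are not reported here.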

Additional observations from a re-analysis of the deposited data

Results flagged for a closer look

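The nuclear subunit genes had medians of opposite sign in the lines, -0.18 in HCC1937 and 0.0839 in THP-1 on the log2 scale. The difference between the lines was not tested, dose and time differ between them, and the THP-1 median was -0.00548 when scaled by median of ratios. In addition, 14 nuclear members had counting intervals of the ratio on opposite sides of 1 in the lines. All 14 were lower in HCC1937 and higher in THP-1, as were 5.84% of all genes with intervals in both, not matched for level. This difference was not tested either.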

How the results depend on the processing

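Each comparison rests on 1 library per group, so no library could be left out. The labels give no replicate numbers, and pairing by line is the block of the limma model. The lines' columns imply different gene lengths, so levels are not compared between lines, and how reads were divided between subunit genes and their pseudogene copies is not given. Under median-of-ratios, upper-quartile and nuclear-total scaling in turn, the HCC1937 medians were 0.45, 0.57 and 0.81 for mitochondrially encoded genes and -0.45, -0.34 and -0.11 for nuclear genes, and the THP-1 nuclear medians were -0.00548, 0.0507 and 0.0941. The mitochondrially encoded genes called 2-fold higher were then 0, 0 and 4. The shares of all kept genes called higher under these scalings are not reported here, so these counts have no background. Nuclear genes of HCC1937 called lower were 3 under each of the first pair, beside 451 and 317 of 14058 kept genes. With a pseudocount of 10 the medians were 0.725, -0.118 and 0.0736, their gap 0.84, and 1 gene of each kind was called higher. With a pseudocount of 0.1, 1 nuclear gene was called lower. At 1.5-fold, 13 mitochondrially encoded genes and 4 nuclear genes were called higher and 7 nuclear genes lower in HCC1937, and 1 lower in THP-1. Among nuclear genes whose mean reached that of the lowest mitochondrially encoded one the gap was 0.99, though this does not match the levels of both kinds. In 56 values for these results under other settings, counts stayed within 1.5 times and medians close to those reported, and 26 values moved further. Over all kept genes, HCC1937 calls were 1455 higher and 202 lower, against 451 lower by median of ratios, 317 lower by upper quartile, 2326 and 383 at a pseudocount of 0.1, 131 and 31 at 10, 550 and 108 at a filter of 5 FPKM, and 3087 and 833 at 1.5-fold. In THP-1 the same counts were 138 and 44, against 297 and 74, 3 and 0, 42 and 4, and 399 and 121 in that order from the pseudocount of 0.1 on. By limma, 0 genes were called without the line block (3 at an unadjusted p under 0.05), without the trend (449), by median of ratios (518), and on genes kept in both lines (625), an alternative chosen after seeing the data. The cause of these differences was not tested.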
